A study of Mus musculus with 7 samples.

Results

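Regions bound by CTCF in 3T3 cells, and holding no peak of CTCFL in the same cells nor of CTCF or CTCFL in P19 cells, were described across the genome. They were chosen by pooling 4 deposited peak lists, merging peaks that shared at least 1 bp, and keeping the merged regions with a 3T3 CTCF peak alone. This left 19370 of 65700 merged regions, 29.5% (95% interval 29.1 to 29.8), of which 44633 held a 3T3 CTCF peak. The presence or absence of peaks thus chose the regions, and nothing below tests it.

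CTCF is a zinc-finger protein that binds DNA at many sites and, with the cohesin ring, halts loop extrusion, so that its sites mark loop anchors and domain borders. It can insulate a promoter from an enhancer on the far side of a bound site. A large core of CTCF sites is known to be shared between cell types, while a further set varies, in part with DNA methylation at the site. CTCFL, also called BORIS, is the germline paralogue, with a similar DNA-binding domain and different flanking parts.

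The series has 7 chromatin immunoprecipitation samples from mouse NIH3T3 fibroblasts (3T3) and P19 embryonal carcinoma cells, and 4 of them are analysed here, each as 1 peak list. The 3T3 CTCF and 3T3 CTCFL libraries came from NIH3T3 cells labelled as carrying pBI-EGFP-FLAG-mCtcfl and pTA-N, so the CTCF measured here came from cells made to express tagged mouse Ctcfl. The P19 CTCF and P19 CTCFL libraries are titled controls, although their labels list the same integrate, and whether Ctcfl was induced there is not settled by the labels. All 4 share the described regime of 2 µg/ml doxycycline with 48 h without it for induction. Libraries of 3T3 cells lacking the integrate, and the input DNA of P19, were not used here. A peak list holds no expression marker against which the cell labels could be checked.

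With 1 library in each group there is no replicate check of any difference, and no test was made. Intervals of shares are exact (Clopper-Pearson) 95% binomial intervals, which cover counting error only, and neighbouring peaks are not independent. The interval of the difference between X and autosomes combines the limits of both shares and is approximate. How many reads stand behind a peak is unknown, as the depth is not stated in the sources used here. The lists held 45653 peaks for 3T3 CTCF, 16764 for 3T3 CTCFL, 32277 for P19 CTCF and 5866 for P19 CTCFL. Positions are mm9 coordinates counted from 1, and no gene was assigned, because the annotation at hand is of another build.

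Every one of the 19370 regions was made of 1 peak of the 3T3 CTCF list. They made up 42.4% (42.0 to 42.9) of that list's peaks but 31.7% of its bases, 5856 of 18501 kb. Among the 26222 regions with 3T3 CTCF and without P19 CTCF they were 73.9% (73.3 to 74.4), the rest holding CTCFL of either line. The count also depended on the lists that could exclude a region, in alternatives chosen after the data were seen. Without either CTCFL list there were 26621 such regions, or 58.3% of the 3T3 CTCF peaks, and without the 3T3 CTCFL list alone there were 25625. Counting peaks of the other lists as present only from a score of 100 gave 27714 regions and 60.7% of the peaks. Under alternatives set earlier, limiting the 3T3 CTCF list itself to scores of at least 100 left 5585 regions, and cutting every list to its 5866 highest scores left 1847.

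CTCF peaks found in 3T3 alone were weak within their list. The authors' peak score is a transformed p-value of the caller (−10 × log10 p, as the tool named implies). It had a median of 74.8 in these regions, with quartiles at 61.1 and 103. The 26283 other 3T3 CTCF peaks had a median of 168. Peaks of CTCF in both lines without CTCFL had a median of 145, and those with both factors in 3T3 and nothing in P19 a median of 144. The difference of the medians against all other peaks of the list was −93.3. It was −85.3 with peaks up to 200 bp apart joined and −72.0 with peaks up to 1000 bp apart joined. With scores of at least 100 in all lists it was −158, and with lists of equal length −443. The last settings keep only the higher scores of the list, so their differences are on another scale. The classes with CTCF in both lines and with both factors in 3T3 differed from each other far less than either did from CTCF in 3T3 alone. A score of at least 100 was reached by 5585 regions, 28.8% (28.2 to 29.5), against 52.9% of all 3T3 CTCF peaks. It was reached by 67.1% of the peaks with CTCF in both lines and 66.2% of those with both factors in 3T3 only.

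**Figure D1:**
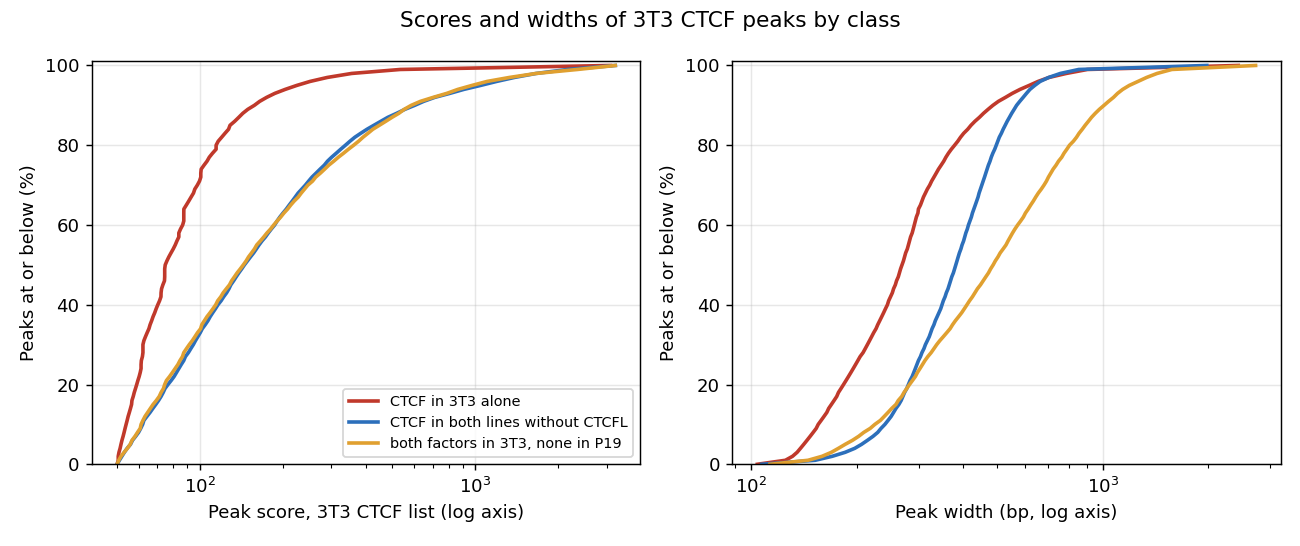
Cumulative share of 3T3 CTCF peaks against score (left) and width in bp (right), both on log axes, for CTCF in 3T3 alone and 2 other classes of the same list. The score curve of CTCF in 3T3 alone lies to the left of both others (median 74.8 against 145 and 144), and the 2 other score curves nearly coincide while their widths differ.

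Along the list, the share of peaks that were CTCF in 3T3 alone fell with the score. Of 10 groups of nearly equal size ordered by score, the lowest held them at 69.7% (68.4 to 71.1) and the fifth at 55.2%. The share was 29.7% in group 7, 9.95% in group 9 and 3.26% (2.77 to 3.82) in the highest group, whose scores began at 620. The share of CTCF in both lines without CTCFL moved the other way up to group 8, from 18.7% to 49.8%. Ordered by width the fall was from 83.0% (81.8 to 84.0) of the narrowest group to 13.8% (12.8 to 14.8) of the widest.

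**Figure D2:**
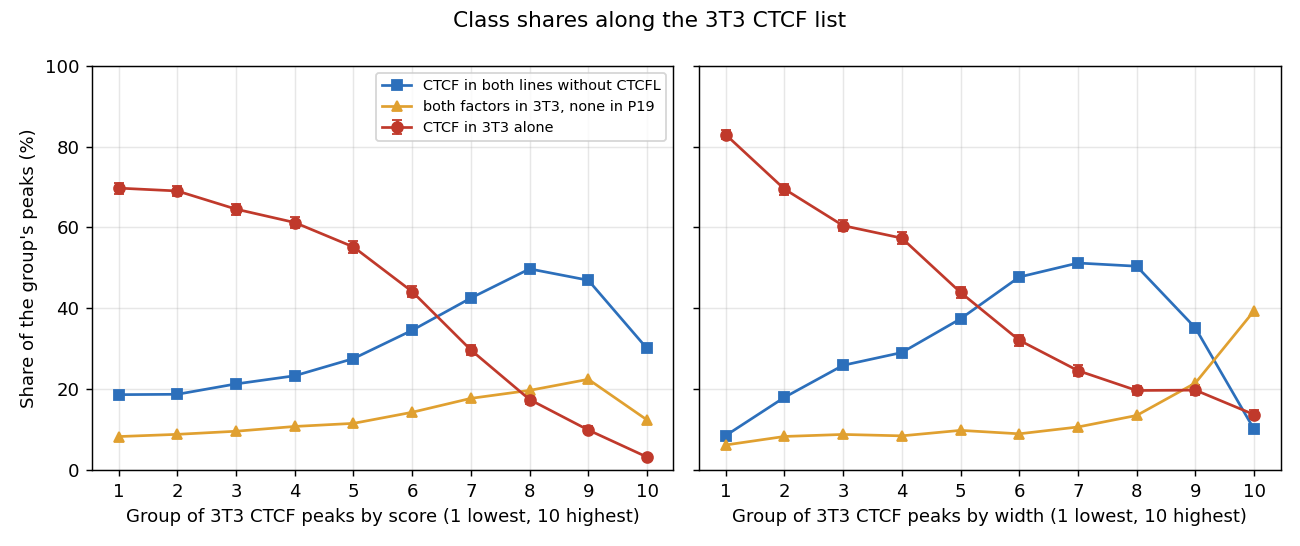
Share (%) of 3T3 CTCF peaks in each of 10 groups by score (left) or width (right) that belong to each class, with exact 95% intervals as bars on CTCF in 3T3 alone. CTCF in 3T3 alone falls from 69.7% to 3.26% along the score groups and from 83.0% to 13.8% along the width groups.

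The peaks of CTCF in 3T3 alone were also narrow, with a median width of 268.5 bp and quartiles at 198 and 347 bp. Median widths were 382 bp for CTCF in both lines without CTCFL and 488 bp for both factors in 3T3 only. At like score they were still the narrowest. In score group 2 the medians were 227 bp for CTCF in 3T3 alone, 289 bp for CTCF in both lines and 284 bp for both factors in 3T3. In group 7 they were 363, 395 and 511 bp in the same order. In the highest group the first and second came close, at 439 and 462 bp, with 786 bp where CTCFL was present in 3T3. The first and second were also close in group 8, at 418 and 428.5 bp. In group 1 the medians were 269, 282 and 278 bp in the same order, so the gap did not change steadily with score.

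The narrowest peaks were mostly of this class and had few distinct scores. Of the regions, 4952 were under 200 bp wide, 25.6%, against 4.24% of the peaks with CTCF in both lines and 6.65% of those with both factors in 3T3. Peaks under 200 bp in the whole list were CTCF in 3T3 alone in 80.7% of cases (79.7 to 81.6). The 4952 narrow regions had only 103 different scores, whereas the 7459 regions from 200 to under 300 bp had 1746 and the 6959 wider ones 4493. The score 74.47 alone occurred at 813 peaks of the list, 695 of them (85.5%) CTCF in 3T3 alone, and 87.36 at 780 peaks, 669 of them in the class.

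Below 3100, 14 score values were each shared by at least 100 peaks of the 3T3 CTCF list, a limit set after the data were seen. They covered 5320 peaks, and 4413 of these, 83.0% (81.9 to 84.0), were CTCF in 3T3 alone. The 4413 regions were 22.8% (22.2 to 23.4) of the class, while 3.07% of the peaks with CTCF in both lines and 5.80% of those with both factors in 3T3 had such a score. Their median width was 164 bp, and 98.3% were under 200 bp, against 4.10% of the other 14957 regions. Their median score, 74.47, was near the 76.0 of the other regions, and none exceeded 143. Without all peaks of repeated score the class was 37.1% (36.6 to 37.6) of the list. Counted at any score, 3100 included, 15 values were shared by at least 100 peaks in the 3T3 CTCF list and 10 in the 3T3 CTCFL list. No score was shared by 100 peaks in either P19 list.

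**Figure D3:**
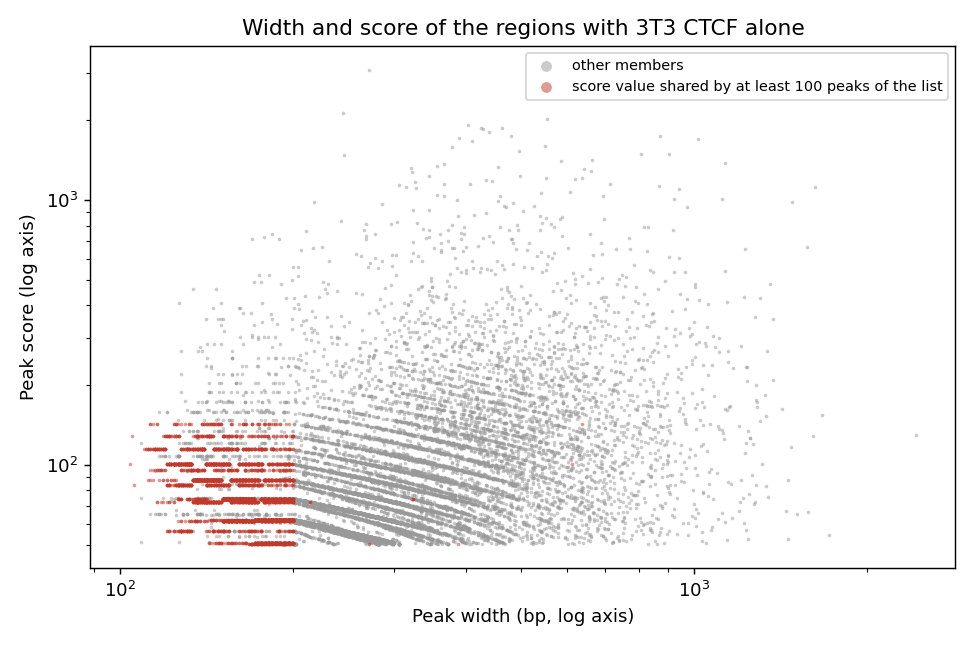
Width (bp) and score of each of the 19370 regions with 3T3 CTCF alone, both on log axes, with the 4413 regions whose score is shared by at least 100 peaks of the list in red. The red points form level lines that end near 200 bp, and beyond that width many of the grey points lie along bands that slope downward.

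A small number of these regions scored high. Scores of at least 200 were found at 1206 of them, 6.23%, of at least 500 at 211, 1.09% (0.948 to 1.25), and of at least 1000 at 54, 0.279%. Among all 3T3 CTCF peaks the shares were 27.9%, 12.1% and 6.77%. Seen the other way, CTCF in 3T3 alone made up 3.81% (3.32 to 4.35) of the peaks scoring at least 500 and 1.75% (1.31 to 2.27) of those scoring at least 1000. A score of exactly 3100 was given to 505 peaks of the list, and 1 of them was in this class.

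That site, chromosome 5 116903508 to 116903778, was the strongest, and its width of 271 bp was small for such a score. The nearest P19 CTCF peak lay 7667 bp away and the nearest 3T3 CTCFL peak 6590 bp away. The second, chromosome 9 107587624 to 107587868, scored 2122 over 245 bp and had a P19 CTCF peak 914 bp away. Together with chromosome 8 95245540 to 95245785 (score 1472, 246 bp) these were the 3 regions under 300 bp among the 54 with scores of at least 1000, whose median width was 461 bp.

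Several of the leading sites stood far from any P19 CTCF peak. Chromosome 18 79306488 to 79307392 scored 1484, with the nearest P19 CTCF peak 109547 bp and the nearest 3T3 CTCFL peak 936795 bp away, so it was the most isolated of the 20 highest from both lists. Chromosome 10 62188392 to 62189055 scored 1419 and lay 42178 bp from P19 CTCF, and the narrow chromosome 8 site lay 47368 bp from it. Chromosome 11 86171366 to 86172172 scored 1487 at 36844 bp, and chromosome 6 116178669 to 116179163 scored 1524 at 30016 bp. Chromosome 1 59641407 to 59641845 scored 1809 at 23868 bp, and chromosome 6 146634325 to 146634873 scored 1594 at 22522 bp.

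Others stood beside P19 CTCF without touching it. The closest was chromosome 7 107834193 to 107834582, which scored 1708 with a P19 CTCF peak 384 bp away, followed by chromosome 6 53744596 to 53745024, which scored 1859 with one 666 bp away. Chromosome 7 29087147 to 29087550 scored 1920 with one 2315 bp away, and chromosome 3 131746932 to 131747341 scored 1666 with one 2375 bp away. On the same chromosome the 871 bp wide peak at 35652886 to 35653756 scored 1746 at 3246 bp. Larger gaps of 5371 bp, 8462 bp and 9577 bp were found at chromosome 8 93714637 to 93715116, at chromosome 19 45121906 to 45122368 and at chromosome 6 34155160 to 34155537, with scores of 1735, 1869 and 1578. Beyond 10 kb, the gap was 11505 bp at chromosome 2 73422612 to 73423165 with a score of 2017. It was 15137 bp at chromosome 10 94454742 to 94455167, which scored 1873, and 15554 bp at chromosome 5 136520685 to 136521698, which scored 1704. In all, 10 of the 20 had P19 CTCF within 10 kb and 6 had 3T3 CTCFL within 10 kb, against 47.5% and 36.6% of the whole class. Another region of the class lay within 1 kb of 5 of the 20, and of 12.7% of the whole class.

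Strong and weak regions lay at like distances from P19 CTCF. Over all regions the median gap to the nearest P19 CTCF peak was 10870 bp, and 47.5% (46.8 to 48.2) had one within 10 kb, or 17.8% with all lists cut to 5866 peaks. By score group that share ran from 45.6% to 49.0% with no steady rise or fall, and of the 211 regions scoring at least 500, 107 had none within 10 kb, 50.7% (43.8 to 57.6). Regions with both factors in 3T3 and nothing in P19 had a P19 CTCF peak within 10 kb in 46.4% (45.1 to 47.6), with a median gap of 11460 bp. The intervals of the shares overlap. No P19 CTCF peak lay within 100 kb of 991 regions, 5.12%.

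CTCFL of the same cells lay nearer to CTCF in 3T3 alone than to CTCF shared by both lines. A 3T3 CTCFL peak was within 1 kb of 1848 regions, 9.54% (9.13 to 9.96), against 3.45% (3.16 to 3.77) of the regions with CTCF in both lines without CTCFL. Median gaps were 18542 and 32116 bp. The share within 1 kb was 8.48% in the lowest score group and 10.7% in the highest. For P19 CTCFL the shares within 1 kb were 2.76% and 1.66%. Regions with CTCF in P19 alone had a 3T3 CTCFL peak within 1 kb in 2.33% (2.08 to 2.60). These classes also differ in how densely they lie, and that difference was not separated from the distance to CTCFL.

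**Figure D4:**
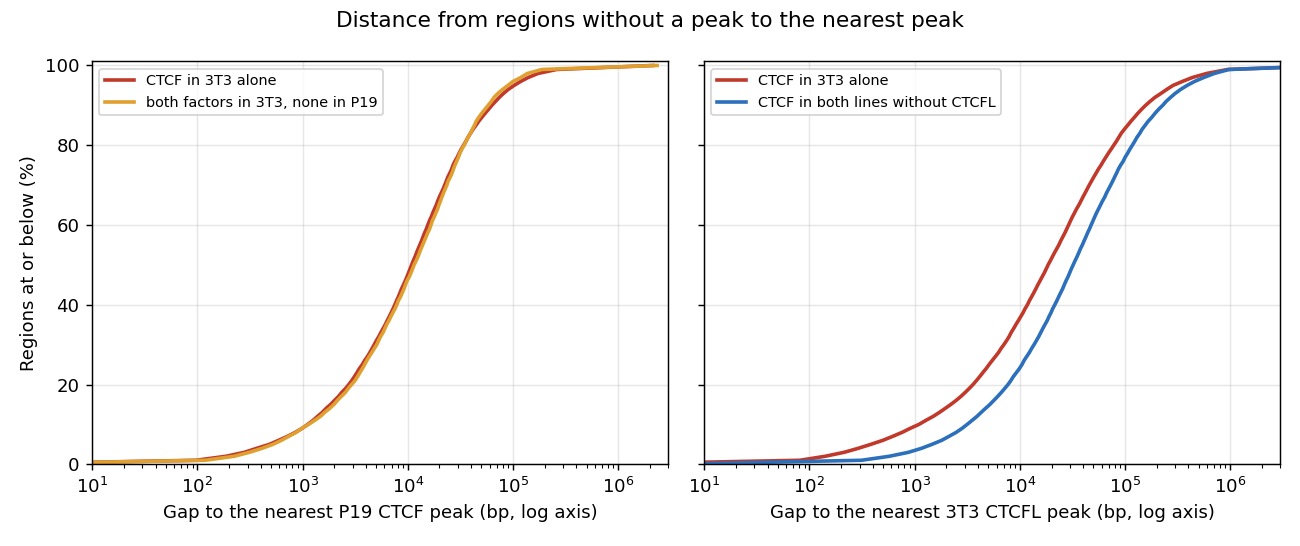
Cumulative share (%) of regions against the gap in bp (log axis) to the nearest P19 CTCF peak (left) and the nearest 3T3 CTCFL peak (right). On the left the curves of CTCF in 3T3 alone and of both factors in 3T3 nearly coincide (medians 10870 and 11460 bp), and on the right CTCF in 3T3 alone lies closer than CTCF in both lines (18542 against 32116 bp).

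Few regions lay just inside or just outside the overlap limit, taken as 50 bp to either side. Of the regions, 230 lay within 50 bp of a peak of another list, 1.19%, and 5 touched one with no shared base. On the other side, 229 peaks of the 3T3 CTCF list shared 1 to 50 bp with the other lists. At wider margins, 992 regions (5.12%) had a peak of another list within 200 bp and 3339 (17.2%) within 1000 bp. Touching P19 CTCF were chromosome 8 121965168 to 121965425, which scored 80.7, and chromosome 4 118239530 to 118239753, which scored 57.5. Touching 3T3 CTCFL was chromosome 11 102328411 to 102328638, which scored 67.5. Just outside the class, with 1 base shared with P19 CTCF, was chromosome 7 109227554 to 109227878 at a score of 117. With 1 base shared with 3T3 CTCFL there were chromosome 14 49791616 to 49792085 at 65.4 and chromosome 3 108642982 to 108643278 at 58.1. At the list's own limit the lowest scores of the class were 50.01 at chromosome 2 119568747 to 119569045 and 50.02 at chromosome 2 164665166 to 164665367 and chromosome 12 87377449 to 87377650. Scores under 55 were found at 2394 regions, 12.4%. These were 70.0% (68.4 to 71.5) of the 3421 peaks of the list scoring 50 to 55, where the class held 42.4% of all peaks of the list.

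CTCF peaks in 3T3 alone had a stronger neighbour of the same list more often than CTCF peaks of both lines did. Another 3T3 CTCF peak of any class lay within 1 kb of 22.2% (21.6 to 22.8) of them, and a higher scoring one in 14.5% (14.0 to 15.0). For CTCF in both lines without CTCFL these shares were 14.5% (13.9 to 15.1) and 5.96% (5.57 to 6.36). For both factors in 3T3 they were 33.2% and 15.8%, so a stronger neighbour was no rarer there than for CTCF in 3T3 alone. Median scores were 74.8 for CTCF in 3T3 alone, 145 for CTCF in both lines and 144 for both factors in 3T3. A lower score makes a stronger neighbour likelier, and the shares were not adjusted for it. The median score was 78.7 for the 4300 regions with any 3T3 CTCF peak within 1 kb, stronger or not, and 74.5 for the 15070 without. Peaks merged when up to 1000 bp apart left 14859 regions in the class, and 17635 when up to 200 bp apart.

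The regions lay near one another. Another region of the class was within 10 kb of 8230, 42.5% (41.8 to 43.2), and within 200 bp of 1069, 5.52%, with a median gap of 14310 bp. The share within 10 kb was 28.1% with peaks up to 1000 bp apart joined, 18.4% with 3T3 CTCF scores of at least 100 and 7.90% with lists of equal length. Of the 13987 regions with CTCF in both lines without CTCFL, 28.4% lay within 10 kb of another of theirs and 1.04% within 200 bp. Of the 5984 with both factors in 3T3 only, 21.5% did within 10 kb and 5.88% within 200 bp, so close pairs were as frequent there. The classes differ in number, which bears on these distances. Walking along the chromosomes over merged regions of every class, the next region to either side of a CTCF region of 3T3 alone was again one in 32.8% of cases, where 29.5% of all regions belong to the class. It was CTCF in P19 alone in 16.3%, against 19.6% of all regions. In turn, next to CTCF in P19 alone the same class followed in 26.7% and CTCF in 3T3 alone in 24.4%. The other classes thus also followed themselves more often than their share of all regions. For CTCF in both lines without CTCFL it was 24.4% against 21.3%, and for both factors in 3T3 only it was 11.6% against 9.11%.

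Runs of consecutive regions with CTCF in 3T3 alone and nothing else between held 10512 of them, 54.3%, and runs of at least 5 held 1090, 5.63%. Runs of the smaller classes held 42.7% of the regions with CTCF in both lines, 44.5% of those with CTCF in P19 alone and 21.7% of those with both factors in 3T3. Such shares rise with the size of a class, and clustering beyond that was not tested. The longest had 11 regions at chromosome 5 74954299 to 75192818, over 239 kb, with scores from 51.7 to 298 and a median of 95.8. A run of 10 spanned only 28.1 kb at chromosome 11 69153804 to 69181882, with a low median score of 59.0. Runs of 9 were found at chromosome X 11706444 to 11737258 (30.8 kb, median score 99.3), chromosome 17 34179161 to 34212500 (33.3 kb, median score 70.5) and chromosome 6 84049327 to 84166221 (117 kb, median score 71.5). The highest score in these 5 runs was 298. The longest run was 7 for CTCF in both lines without CTCFL and 15 for CTCF in P19 alone.

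By chromosome the density of the regions varied far more than their share of CTCF binding. They were densest on chromosomes 19 (13.0 per Mb), 11 (12.5 per Mb) and 17 (11.6 per Mb), and sparsest on X (1.82 per Mb) and chromosome 16 (3.50 per Mb). Their share of the regions with 3T3 CTCF was 42.9% ± 2.78 (SD over 19 autosomes). It was highest on chromosome 5 at 46.2% (44.6 to 47.9) and lowest on chromosome 16 at 36.0% (32.9 to 39.1). On X it was 41.2% (37.6 to 44.8) against 43.4% (43.0 to 43.9) on the autosomes together. The interval of the difference, −2.27 points (−5.88 to 1.42), includes 0. The difference changed sign under other settings. It was 7.36 points (2.00 to 12.7) with scores of at least 100 in all lists. With that limit in the other lists only it was 4.47 points (0.905 to 7.90). These intervals exclude 0, while those of the other settings that changed the sign include it.

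Set against CTCF in P19 alone, the chromosomes differed more. There were 1.504 regions of CTCF in 3T3 alone for each with CTCF in P19 alone over all chromosomes, and 1.54 ± 0.444 (SD over 19 autosomes). Chromosome 19 had 2.63, with 797 against 303 regions, chromosome 15 had 2.13 and chromosome 17 had 2.12. Chromosomes 16 and X were the only ones below 1, with 344 against 504 regions (0.683) and 303 against 403 regions (0.752). Chromosome copy number of these lines was not measured here, and its part in these ratios was not tested.

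**Figure D5:**
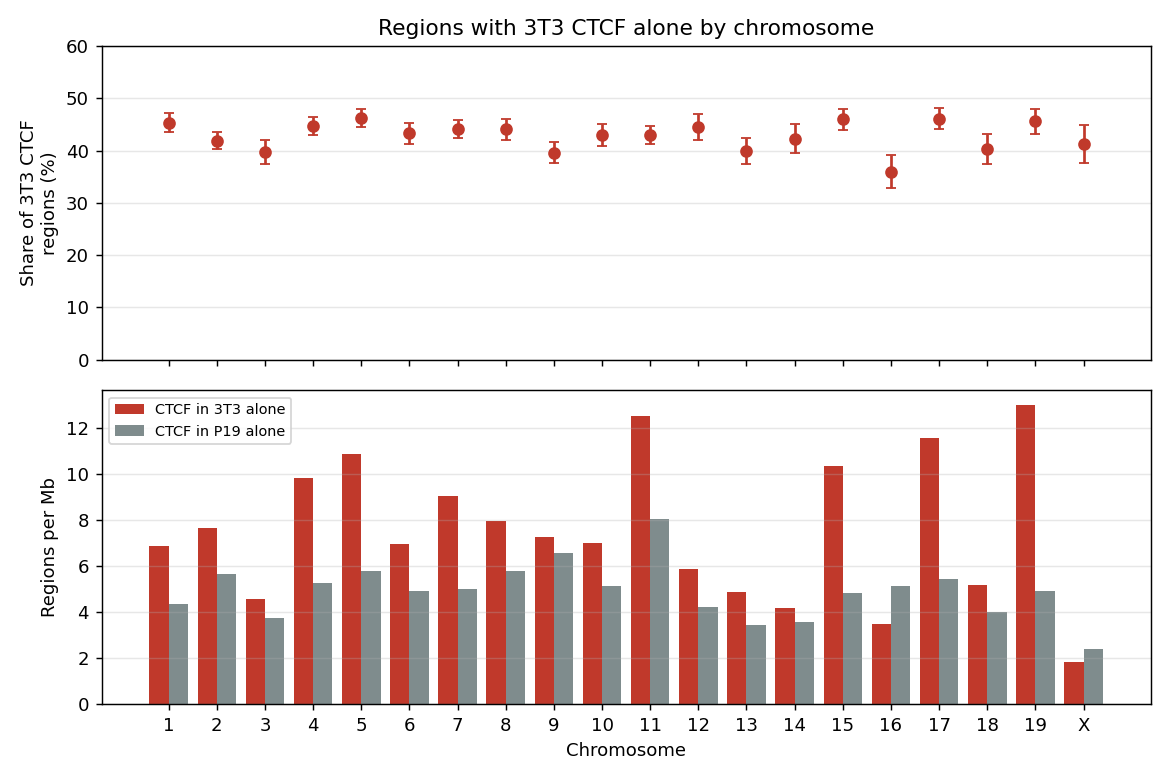
Top, share (%) of regions with 3T3 CTCF that had it alone, by chromosome, with exact 95% intervals; bottom, regions per Mb with CTCF in 3T3 alone and in P19 alone. The share stays between 36.0% and 46.2%, whereas the density of CTCF in 3T3 alone ranges from 1.82 per Mb on X to 13.0 per Mb on chromosome 19.

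The strongest regions on the densest and sparsest chromosomes showed the same variety of surroundings. On chromosome 11, after the site named above, came 59022456 to 59023117 (score 1290), which had a 3T3 CTCFL peak only 193 bp away, and 75376374 to 75376818 (score 1180), with P19 CTCF 4396 bp away. On chromosome 19 the second was 60831651 to 60833132, 1482 bp wide with a score of 985 and no P19 CTCF peak within 54031 bp. On X the first was 137038498 to 137038715 (score 978, 218 bp wide), and the second, 11664088 to 11665007 (score 772), had 3T3 CTCFL 427 bp away but its nearest P19 CTCF peak 164506 bp away.

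Over fixed 1 Mb windows the number of these regions rose with that of other CTCF regions. They were present in all but 374 of the 2475 windows with any merged region, with a median of 4, and 335 windows held 50% of them. Across windows their number had Spearman's rho of 0.820 with that of CTCF in both lines without CTCFL, 0.742 with both factors in 3T3 only and 0.668 with CTCF in P19 alone. These values are a description over windows, and the first and second classes share the 3T3 CTCF library with the regions. Base composition of the windows was not measured, and its part was not tested. The windows richest in them were chromosome 10 79000001 to 80000000 with 98 of 180 regions with 3T3 CTCF and the window after it with 91 of 180. Chromosome 17 56000001 to 57000000 had 73 of 131 and chromosome 15 78000001 to 79000000 had 60 of 121.

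Their share of 3T3 CTCF regions was similar in most windows. In the 783 windows with at least 20 regions with 3T3 CTCF the median share was 43.5%, the quartiles were 38% and 50%, and the extremes were few, with 6 windows under 20% and 20 windows over 60%. Chromosome 15 72000001 to 73000000 and chromosome X 11000001 to 12000000 were highest, each with 15 of 20 (95% interval 50.9 to 91.3%), followed by chromosome 18 46000001 to 47000000 with 16 of 22 and chromosome 6 94000001 to 95000000 with 15 of 21. The X window held the run of 9 and the second strongest site of X, while the window before it had 1 of 3 regions in the class and the one after it 0 of 12. At the other end stood chromosome 7 142000001 to 143000000 with 2 of 20 (10.0%, 1.23 to 31.7) and 16 regions with CTCF in both lines. Chromosome 17 43000001 to 44000000 had 3 of 23, chromosome 11 57000001 to 58000000 had 4 of 23 and chromosome 2 75000001 to 76000000 had 4 of 21. These windows were picked for their shares, and with about 20 regions each their intervals are wide.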

How the data were processed

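The authors deposited 1 peak list per analysed sample, with chromosome, start, end and a score per peak. The score, with a lowest value of 50, is taken as −10 × log10 p because MACS writes it so, and scores are compared only within the 3T3 CTCF list. Alternatives that limit other lists to scores of at least 100 apply 1 limit to lists of unlike scale. Per the submitters' processing notes, FastQC, Bowtie, SAMtools and MACS 1.4 were used, with builds hg19 and mm9 and no roles. Not given in the sources used here are settings, filters, depth, pooling and the control library. Per the labels' protocols, libraries were made from 10 ng of DNA with antibodies to CTCF or CTCFL.

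Starts were converted to positions counted from 1. Peaks sharing at least 1 bp were merged, and 65700 merged regions equalled those of bedtools 2.31.1. On simulated peaks 2409 of 2409 planted regions were recovered. The mm9 build was taken from the notes. On 9 of 20 chromosomes the last 3T3 CTCF peak lay beyond the last gene of the GRCm38.p6 table. That cannot tell the builds apart, as a peak can lie beyond the last gene in either. Planned gene, motif and sequence steps were not run, because no genome or annotation of mm9 was at hand.

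The regions, lists and settings were chosen with earlier results of these data known. Named regions followed a rule: the 20 highest scores, the 5 highest on chromosomes 11, 19 and X, the widest, the nearest to the limits, the longest runs, and the windows with most regions and with extreme shares. The text gives most of them. Windows are fixed and 1 Mb long, and regions were assigned by their middle. Density is per Mb up to the chromosome's last merged region. Alternatives changed the gap that joins peaks, the overlap needed, peak width, score limits, list length and the lists used. Tools were SciPy 1.17.1, pandas 2.3.3, numpy 2.4.6 and matplotlib 3.10.9 under Python 3.11.15.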

Additional observations from a re-analysis of the deposited data

How the results depend on the processing

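No paired analysis was possible because no group has a second library, which also prevents leaving out replicates. The planned sequence alternative was not run for want of a genome of the build. Peaks were joined at gaps of up to 200 or 1000 bp, required to overlap by 50% of the shorter peak, or resized to 400 bp. Scores were limited to at least 100 (the limit) in the 3T3 CTCF list, in all lists or in the other lists, and every list was cut to its 5866 highest scores (equal length). Of the planned values, 20 stayed within the interval of the reported one (for the number of regions, within 1.5 times), 31 moved beyond it and 4 reversed. Of those added after the data were seen, 18 stayed, 15 moved and 2 reversed. The number of regions was 5585 with the 3T3 limit, 10219 with the limit in all lists and 1847 at equal length. Their share of 3T3 CTCF peaks was 39.7% joined at 200 bp, 34.6% joined at 1000 bp, 43.9% at 50% overlap, 23.1% with the 3T3 limit, 31.5% at equal length, 56.1% without 3T3 CTCFL, 43.1% without P19 CTCFL, 58.3% without either CTCFL list, 37.1% without repeated scores and 60.7% with the limit in the other lists. The median score minus that of the other peaks (−93.3) was −85.3 joined at 200 bp, −72.0 joined at 1000 bp, −98.0 at 50% overlap, −127 with the 3T3 limit, −158 with the limit in all lists, −443 at equal length, −101 without repeated scores and −134 with the limit in the other lists. The share in the highest minus the lowest score group (−66.5 points) was −62.7 joined at 200 bp, −55.4 joined at 1000 bp, −68.6 at 50% overlap, −51.9 with the 3T3 limit, −37.8 at equal length, −62.3 without 3T3 CTCFL, −58.3 without either CTCFL list and −73.3 with the limit in the other lists. Another region of the class within 10 kb was found for 37.4% joined at 200 bp, 28.1% joined at 1000 bp, 43.8% at 50% overlap, 41.2% resized, 18.4% with the 3T3 limit, 27.1% with the limit in all lists, 7.90% at equal length, 50.9% without 3T3 CTCFL, 51.9% without either CTCFL list, 36.8% without repeated scores and 50.6% with the limit in the other lists. P19 CTCF within 10 kb was found for 46.0% joined at 200 bp, 40.8% joined at 1000 bp, 48.4% at 50% overlap, 34.6% with the limit in all lists, 17.8% at equal length and 34.8% with the limit in the other lists. The X minus autosome difference turned positive, to 0.00975 joined at 1000 bp, 1.06 with the 3T3 limit, 7.36 with the limit in all lists, 2.16 at equal length, 0.115 without repeated scores and 4.47 with the limit in the other lists. Score limits and equal length remove weak peaks by construction. Joining peaks can only take peaks out of the class, and leaves no region with P19 CTCF or another of the class within the joining gap. Leaving out a CTCFL list, limiting only the other lists or asking for 50% overlap can only add peaks to the class. For the other shifts the cause was not tested. The highest minus lowest score group difference stayed below 0 under every setting run. Unknown depth limits all lists, since a site below a list's lowest score counts as unbound there, and 1 library per group leaves no estimate of error between cultures.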

Other observations

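Peaks over 1000 bp wide made up 0.666% (129) of the regions with CTCF in 3T3 alone, 0.391% (56) of the peaks with CTCF in both lines without CTCFL and 10.3% (639) of those with both factors in 3T3 and none in P19. Of the 129, 46 scored under 100, 35.7% (27.4 to 44.6), against 71.2% of the whole class. The same shares were 12.5% (5.18 to 24.1) against 32.9% for CTCF in both lines, and 13.6% (11.1 to 16.5) against 33.8% for both factors in 3T3, so in each class the broad peaks were less often weak. The widest was chromosome 5 149862830 to 149865263, at 2434 bp with a score of 129. The next, chromosome 7 134169374 to 134171088, was 1715 bp wide with a score of only 54.1, and lay 111 bp from a P19 CTCF peak and 245 bp from a 3T3 CTCFL peak. By contrast, chromosome 6 113026231 to 113027850 was 1620 bp wide with a score of 1121 and lay 29544 bp from 3T3 CTCFL and 37700 bp from P19 CTCF. Across the regions, width and score had Spearman's rho of 0.194, against 0.443 for CTCF in both lines and 0.558 for both factors in 3T3, as a description over peaks of 1 library.

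The regions with a repeated score lay at like distances from P19 CTCF as the others of their class, but less often close to 3T3 CTCFL. P19 CTCF lay within 10 kb of 47.0% (45.5 to 48.5) of them and of 47.7% (46.9 to 48.5) of the rest, and another region of the class within 10 kb of 40.9% and 42.9%. A 3T3 CTCFL peak lay within 1 kb of 7.52% (6.76 to 8.34) of them and of 10.1% (9.66 to 10.6) of the rest.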
